A study of Mus musculus with 9 samples.

Results

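The genes described here encode the enzymes that remove methyl or acetyl groups from histones, together with the genes of the Kmt2 and Kmt5 families of lysine methyltransferases, in mouse mast cells grown from bone marrow. All rows whose symbol begins with Kdm1 to Kdm8, Kmt2 or Kmt5, or reads Hdac with a number or Sirt1 to Sirt7, were taken, which gave 43 of the 15109 genes in the deposited table. Of these, 42 code for proteins: 16 lysine demethylases, 5 members of the Kmt2 and 3 of the Kmt5 family, 11 histone deacetylases and 7 sirtuins. The remaining one, Kdm6bos, is an RNA transcribed antisense to Kdm6b.

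Messenger RNA was sequenced from 9 libraries of wild-type C57BL/6 mast cells kept in medium conditioned by WEHI-3 cells, a source of interleukin 3, with 3 libraries in each of 3 groups. Control cells were untreated. BSA cells carried IgE against dinitrophenyl and were then given the antigen DNP-BSA, which crosslinks the IgE on its receptor. Taxinine cells were sensitised likewise and received taxinine, a taxane diterpene of yew, for 1 h before the antigen. The labels used here name no dose, no vehicle, no length of antigen exposure and no group that had taxinine alone. They also name no group that carried IgE without antigen, so IgE and antigen cannot be told apart in BSA against Control. Changes described below as with antigen are those after IgE and antigen together. They call the replicates biological without saying whether these were separate animals or cultures, so the p-values measure the spread between these libraries, part of which may be technical.

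Histone lysine methylation is written and erased by enzymes that are selective for the lysine. KDM6A and KDM6B remove the repressive mark placed by Polycomb. KDM5 enzymes remove the promoter mark on the lysine that the catalytic KMT2 enzymes methylate, and KMT5B and KMT5C build the mark of silent chromatin. Classical deacetylases are zinc enzymes, several of which act inside corepressor complexes. Sirtuins instead consume NAD, which ties them to the metabolic state of the cell. Kdm6b is known in myeloid cells as a gene that inflammatory stimuli induce.

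The 13 mast cell markers listed for the check, among them Kit, were all present, and their summed level lay between 48831 and 54587 CPM over the 9 libraries. CPM is a count scaled to the size of its library, here after adjustment with edgeR's TMM factors (trimmed mean of M values). The 8 of 9 macrophage markers in the table summed to 58.3 to 64.2 CPM in Control, 71.5 to 80.8 in BSA and 63.9 to 68.6 in Taxinine, and 3 of them rose in BSA against Control. Most of these sums came from Adgre1, at 42.7 to 53.2 CPM over the 9 libraries, and Lyz2, at 13.7 to 22.9 CPM. Csf1r reached at most 1.27 CPM and C1qb, C1qc and Mrc1 at most 0.455. Their part in the results below was not tested. The 3 basophil markers summed to 1200 to 1341 CPM. The 4 megakaryocyte markers summed to 1599 to 1768 CPM, of which Itga2b alone gave 1598 to 1765. Pf4, Ppbp and Gp9 reached at most 1.97, 0.683 and 1.18 CPM. The table held 1 of 8 neutrophil, 1 of 6 T cell and 2 of 4 B cell markers. These summed to at most 0.946, 0.380 and 2.28 CPM. For eosinophils 1 of 4 markers was present, at up to 17.0 CPM, and for erythroid cells 2 of 5, at up to 40.6. The eosinophil marker rose with antigen, from 3.50 to 5.37 CPM in Control to 13.9 to 17.0 in BSA. Libraries held 8975371 to 14116976 counts, and 3 counts corresponded to 0.213 to 0.334 CPM. In bulk RNA, fewer cells of a type and less RNA per cell cannot be told apart.

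Promoter sequence was available in RefSeq for 32 of the 43 genes, in 47 windows of 300 bases (GRCm38.p6, 250 before and 50 after the start). Kdm6b was not among them. Of 6 motifs searched on both strands, the form GCGNGGGCG bound by EGR factors was found in 9 of the 47 windows (19.1%), against 5.55% of 32851 windows of the same length over all genes. The member windows were also richer in G and C, with a median of 61.3% against 52.7%. The AP-1 form TGANTCA was in 6 windows (12.8% against 7.81%), and the full cyclic AMP response element TGACGTCA was in 0 of 47 against 1.79%. Its first letters alone, TGACG, which every full element also contains, were in 13 (27.7% against 20.8%). A loose NF-kB form was in 35 (74.5% against 50.8%) and the NFAT form GGAAA in 24 (51.1% against 61.3%). Below are stretches before the start of Sirt1 (chr10:63339051-63339285, minus strand) and before the second listed start of Kdm3a (chr6:71632687-71632837, minus strand), each kept to bases outside annotated exons and shown because both genes rose with antigen and both windows hold the EGR form, which is in capitals.
Sirt1: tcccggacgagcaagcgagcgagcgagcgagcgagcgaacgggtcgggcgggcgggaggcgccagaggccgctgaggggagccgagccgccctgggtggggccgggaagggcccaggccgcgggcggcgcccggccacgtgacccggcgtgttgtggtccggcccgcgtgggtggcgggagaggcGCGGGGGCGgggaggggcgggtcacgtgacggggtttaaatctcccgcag
Kdm3a: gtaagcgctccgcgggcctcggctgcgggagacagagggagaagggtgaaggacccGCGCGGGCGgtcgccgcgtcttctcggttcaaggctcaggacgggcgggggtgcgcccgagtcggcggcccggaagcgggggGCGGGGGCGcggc
The copy in the Sirt1 stretch began 65 bases before the start, and its window held further copies 8 bases before and 33 bases after it. In this Kdm3a window the form began 95 and 13 bases before the start, and an AP-1 form lay 175 bases before it, outside the stretch shown. The windows of the other listed starts of Kdm3a did not hold the EGR form. Both stretches lie inside the annotated bounds of their genes, which reach 63381704 for Sirt1 and 71632990 for Kdm3a. Windows of Kdm2b, Kdm4c, Kdm7a, Kmt2d and Kmt5a also held the EGR form, and none of these genes was called in BSA against Control in the test below. Kmt2c, which rose, held it too. Neither its rise nor that of Sirt1 was called on total counts, and both were called with median-of-ratios factors. A match is a description of letters and not of binding.

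Antigen was followed by a change in 20 of the 43 genes: 11 rose and 9 fell in BSA against Control at an adjusted p under 0.05 (edgeR's quasi-likelihood test, Benjamini-Hochberg adjustment over all 15109 genes). Among all genes tested, 34% changed, 16.2% upward and 17.8% downward. The libraries of the groups did not overlap in 20 members, beside 42.9% of all genes. The median log2 fold change was 0.02 over the 43 genes and 0.00 over all genes. Kdm6b stood far from the others at 2.95, and the next protein-coding member, Kdm3a, reached 0.50. The largest falls were in Sirt4 at -0.85, Kdm8 at -0.60, Sirt6 at -0.48 and Sirt7 at -0.41. Scaling matters to the smaller rises. Without TMM, on total counts alone, the median of all genes moved by -0.23, and 5 members rose and 23 fell, beside 7.15% and 45.6% of all genes. Calls that held in the same direction under TMM, total counts and median-of-ratios factors numbered 5 upward (Kdm6b, Kdm6bos, Kdm3a, Hdac1 and Sirt2) and 9 downward (Kdm2a, Kdm8, Kmt2b, Kmt5b, Kmt5c, Hdac5, Sirt4, Sirt6 and Sirt7).

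**Figure D1:**
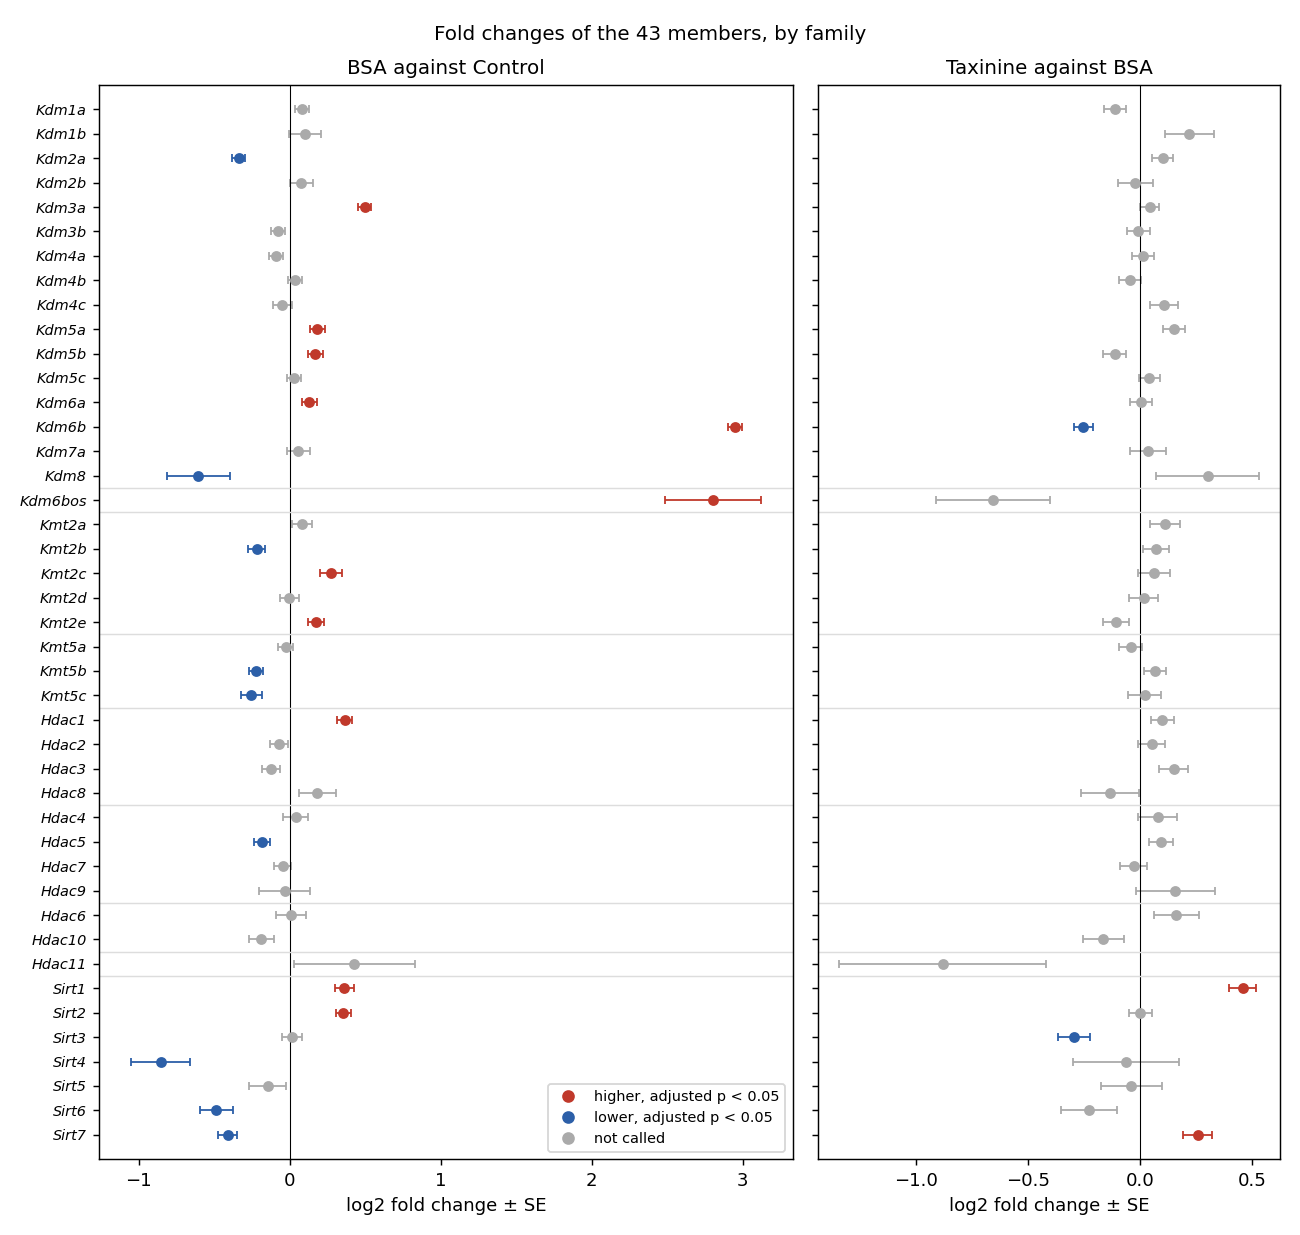
Log2 fold change with its standard error (horizontal axis) for each of the 43 genes (rows, by family) in BSA against Control and in Taxinine against BSA, on separate horizontal scales; red and blue points passed the test upward and downward. Kdm6b lies at 2.95 in the first panel and at -0.25 in the second, and 20 points are coloured in the first panel and 4 in the second.

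**Figure D2:**
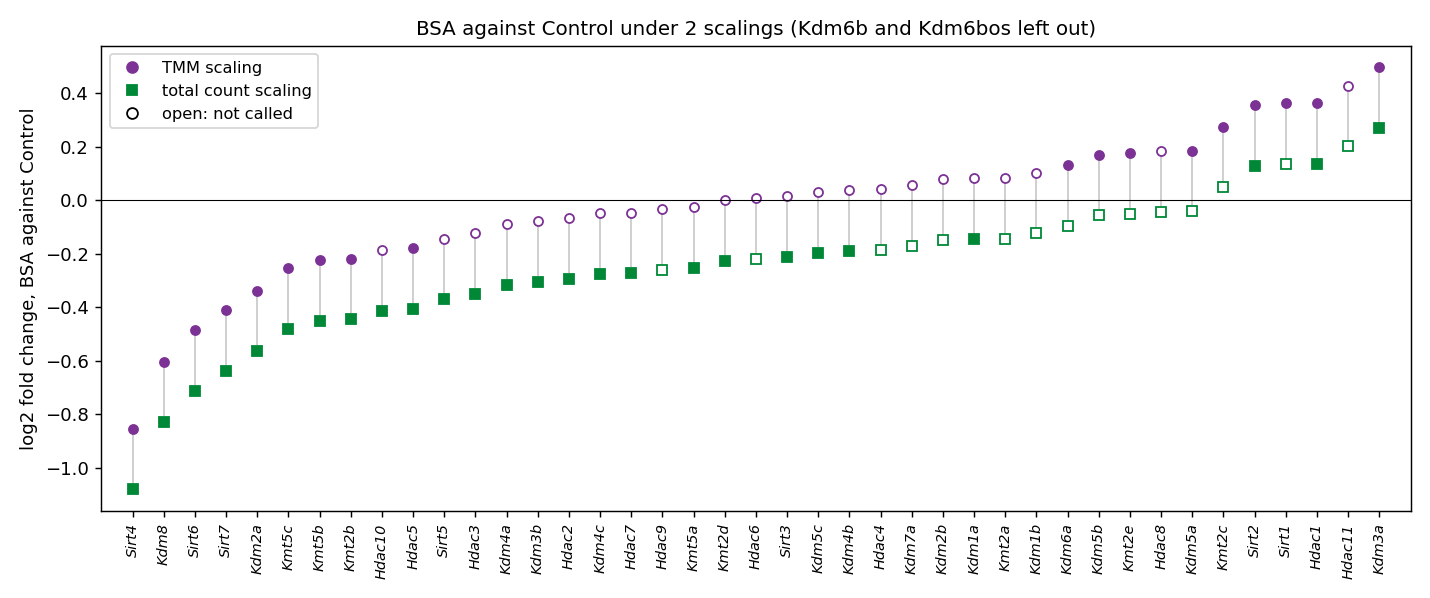
Log2 fold change in BSA against Control (vertical axis) for 41 genes, ordered from low to high, with TMM scaling (circles) and total count scaling (squares); open symbols did not pass the test. Each square lies below its circle, and Kdm5a, Kdm5b, Kdm6a and Kmt2e go from a filled circle above 0 to an open square below 0.

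Pretreatment with taxinine went with a change in 4 of the 43 genes relative to antigen alone: Sirt1 and Sirt7 rose, and Kdm6b and Sirt3 fell. This share is near that of the table, where 6.98% of genes changed, 2.86% upward and 4.12% downward. The 3 libraries of each group did not overlap in 12 of the 43, beside 23.9% of all genes. On total counts 3 members rose and 2 fell, beside 4.28% and 3.15% of all genes. The medians were 0.02 over the members and 0.00 over all genes. All 4 calls were also made with total count scaling, median-of-ratios factors, DESeq2 and limma. Leaving out 1 library ended the call of Sirt3 (adjusted p 0.0605 without Taxinine replicate 1) and that of Sirt7 (0.0846 without BSA replicate 1 and 0.0938 without Taxinine replicate 3). Calls for Kdm6b and Sirt1 were made under each alternative run. Across genes the log2 difference rose with exon length (Spearman 0.200 over 9866 genes), the part of which in these 4 values was not tested.

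Against Control, the Taxinine libraries differed in 19 of the 43 genes, 11 higher and 8 lower, where 33.1% of all genes were called, 15.9% higher and 17.2% lower. The groups did not overlap in 20 members, beside 43.7% of all genes. On total counts 7 members were higher and 24 lower, beside 7.31% and 41.6% of all genes. Since each of the 3 comparisons shares its libraries with the others, their values are given side by side and not as independent evidence.

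Kdm6b encodes a demethylase of the Polycomb mark and lies on chromosome 11 from 69398508 to 69413675 on the minus strand (GENCODE M21, GRCm38). Its level in the 3 Control libraries was 70.5, 68.0 and 65.9 CPM. In the BSA libraries it was 517, 550 and 510 CPM, and in the Taxinine libraries 439, 441 and 444 CPM. The 3 groups did not overlap: the BSA libraries were highest, the Taxinine libraries lay below them, and Control was lowest. The rise with antigen was 7.71-fold, a log2 fold change of 2.95 ± 0.05 (SE, n = 3 per group, edgeR adjusted p 2.02e-39). With taxinine the level was 16.0% lower than with antigen alone, a log2 fold change of -0.25 ± 0.04 (edgeR adjusted p 3.39e-05), and it stayed 6.48-fold above Control (log2 2.69 ± 0.05, edgeR adjusted p 6.76e-38).

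Kdm6a, the X-linked enzyme for the same mark, moved little beside it. Its log2 fold change was 0.13 ± 0.05 in BSA against Control (edgeR adjusted p 0.0287) and 0.00 ± 0.05 in Taxinine against BSA (edgeR adjusted p 0.98), and the first value was -0.10 and not called on total counts. That call was also lost in the fit of these 2 groups alone (adjusted p 0.0606) and without Control replicate 2 (0.174) or 3 (0.0892), or BSA replicate 1 (0.0542) or 2 (log2 0.087, adjusted p 0.195). Per kilobase of annotated exon, Kdm6b made up 28.5% to 30.3% of the summed Kdm6a and Kdm6b level in the Control libraries. The share was 74.1% to 74.8% in BSA and 70.2% to 71.5% in Taxinine. Among the 43 genes ordered by CPM per exon kilobase, Kdm6b was in place 19 in Control, at 9.80 ± 0.331 (SD, n = 3), and in place 1 in BSA at 75.6 ± 3.12 and in Taxinine at 63.4 ± 0.390.

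Kdm6bos had few counts: 8, 8 and 7 in the Control libraries, 63, 36 and 32 in those of BSA, and 28, 23 and 21 in those of Taxinine. Its level rose with antigen by 2.80 ± 0.32 on the log2 scale (edgeR adjusted p 1.16e-09), and BSA and Control did not overlap. In Taxinine against BSA its log2 value of -0.66 ± 0.26 did not pass the test (edgeR adjusted p 0.119). It shares 286 exon bases with Kdm6b on the opposite strand, 34.0% of its own exon length. The sources used here do not say whether counting used the strand, so reads of the pair cannot be told apart. For every 100 Kdm6b counts there were 0.357 to 0.925 Kdm6bos counts in the 9 libraries.

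By a rule of likeness, Pearson's r over the 9 libraries, the genes nearest to Kdm6b were Fam107b (r = 0.9996), Ripk2 (0.999) and Furin (0.999). This r was taken on the deposited log2 values, which hold no TMM factors, and is a description across libraries that share 3 groups. Ripk2 encodes a kinase of NOD receptor signalling, and Furin a protease that matures secreted proteins. Their mean levels in Control, BSA and Taxinine were 516, 1939 and 1693 CPM for Fam107b. For Ripk2 they were 24.2, 106 and 92.5 CPM, and for Furin 1829, 5829 and 5188 CPM. All 3 were highest in BSA and intermediate in Taxinine, as Kdm6b was, which follows from their choice by r.

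**Figure D3:**
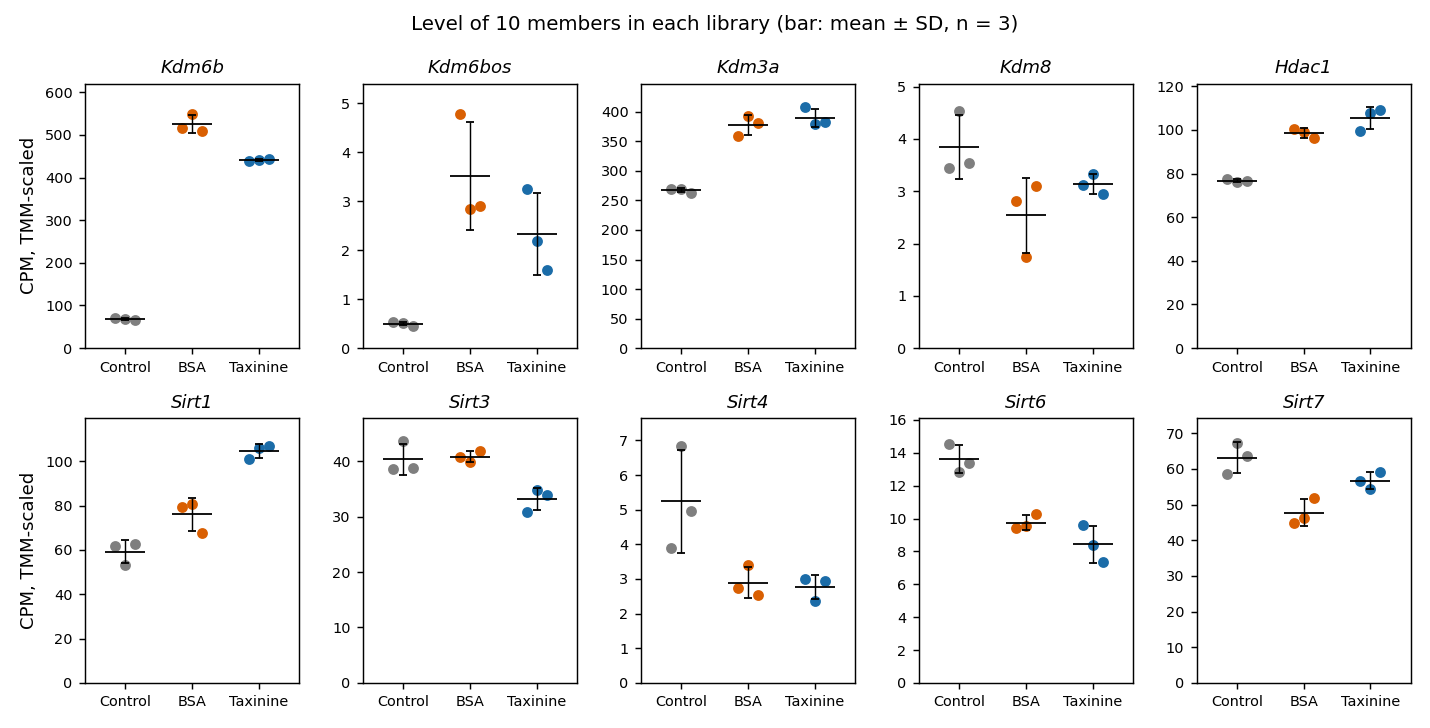
Level in TMM-scaled CPM (vertical axis, from 0) of 10 of the genes in each library of the 3 groups; points are libraries and bars the mean ± SD (n = 3). Kdm6b stands at 510 to 550 CPM in BSA and at 65.9 to 70.5 in Control, and Sirt1 steps upward from Control through BSA to Taxinine.

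Kdm3a removes repressive methylation with its relative Kdm3b and lies on chromosome 6 from 71588972 to 71632990. It was measured at 270, 270 and 263 CPM in Control, at 359, 393 and 381 in BSA, and at 407, 379 and 383 in Taxinine. Every stimulated library was above every Control library, and BSA and Taxinine overlapped. Its rise with antigen was 41.1%, a log2 fold change of 0.50 ± 0.04 (edgeR adjusted p 4.75e-13), and the log2 difference between Taxinine and BSA was 0.04 with a 95% interval of -0.04 to 0.13. The paralogue Kdm3b did not pass the test in either comparison, at -0.08 and -0.01.

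Kdm2a, which acts at CpG islands, fell by 0.34 ± 0.04 on the log2 scale with antigen (edgeR adjusted p 4.09e-08), from a mean of 223 to 177 CPM. Kdm8, an enzyme of the JmjC family, is a gene of low level. Its Control values were 3.44, 4.54 and 3.53 CPM, its BSA values 2.81, 1.73 and 3.09, and its Taxinine values 3.12, 3.33 and 2.95. BSA lay below Control in all libraries, with a log2 fold change of -0.60 ± 0.21 (edgeR adjusted p 0.0199). The call was lost in DESeq2 (adjusted p 0.0813), without Control replicate 2 (0.131) and without BSA replicate 2 (0.188).

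Kdm5a and Kdm5b, erasers of the promoter mark, rose by 0.18 ± 0.05 and 0.17 ± 0.05 on the log2 scale with TMM scaling (edgeR adjusted p 0.00308 and 0.00729). On total counts both lay below 0, at -0.04 and -0.06, and neither passed the test. Kdm5a was higher still with taxinine, at 234, 235 and 227 CPM against 210, 222 and 193 in BSA. Those groups did not overlap, yet the log2 difference of 0.15 ± 0.05 narrowly missed the threshold (edgeR adjusted p 0.0579). Total count scaling, under which it was 0.18, called it (edgeR adjusted p 0.0228). The X-linked Kdm5c did not pass the test in any of the 3 comparisons with TMM.

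The other demethylases, Kdm1a, Kdm1b, Kdm2b, Kdm4a, Kdm4b, Kdm4c and Kdm7a, had log2 values of -0.09 to 0.10 in BSA against Control and did not pass the test. Kdm1a and Kdm1b are flavin enzymes, and the Kdm4 proteins act on methylation of silent and transcribed chromatin. In Taxinine against BSA the same 7 had values of -0.11 (Kdm1a) to 0.22 (Kdm1b), none called. Of all 7, 1 passed the test in Taxinine against Control: Kdm1b rose from 12.3 to 15.5 CPM (log2 0.32 ± 0.11, edgeR adjusted p 0.016). That call was lost on total counts (log2 0.12, adjusted p 0.371), in limma on both log2 scales (0.402 and 0.383), and without Taxinine replicate 1 (0.0789) or 3 (0.0659).

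Kmt2a to Kmt2d write the marks of active promoters and enhancers, while Kmt2e is related to them by its SET domain and is not known to methylate histones by itself. Of these 5, Kmt2c and Kmt2e rose and Kmt2b fell with antigen, each by 0.27 or less on the log2 scale. Kmt2c was at 0.27 ± 0.07 (edgeR adjusted p 0.00195), Kmt2e at 0.17 ± 0.06 (0.0118) and Kmt2b at -0.22 ± 0.06 (0.00172). Kmt2a and Kmt2d, at 0.08 and 0.00, did not pass. The rises were not stable: DESeq2 called neither (adjusted p 0.129 for Kmt2c and 0.163 for Kmt2e), and on total counts they were 0.05 and -0.05, not called. Without BSA replicate 2 the adjusted p of Kmt2c was 0.0677, without Control replicate 2 that of Kmt2e was 0.219, and without BSA replicate 1 that of Kmt2b was 0.0522.

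These are long genes, and long genes moved together between libraries of the same group. Kmt2c, for instance, was at 123, 92.1 and 110 CPM in Control and at 128, 150 and 114 in BSA, with overlap. Over 9866 genes, the deviation of a library from its group mean had a Spearman correlation with exon length of 0.334 in Control replicate 1, -0.356 in Control replicate 2, 0.304 in BSA replicate 2 and -0.235 in BSA replicate 3, a description across genes. Of the 13 members with at least 10 kb of exon, 11 were below their group mean in Control replicate 2 and 2 in BSA replicate 2. The log2 fold change itself had a Spearman correlation with exon length of 0.0639 in BSA against Control, 0.200 in Taxinine against BSA and 0.172 in Taxinine against Control, over the same 9866 genes. The part of this in the Kmt2 values and in the taxinine differences was not tested.

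Both enzymes of the Kmt5 family that build the silent mark fell with antigen. Kmt5b fell by 0.22 ± 0.05 (edgeR adjusted p 0.000144) and Kmt5c by 0.25 ± 0.07 (0.00299) on the log2 scale, and neither overlapped with Control. Kmt5a, which places the first methyl group of the same lysine, was at -0.03 and not called. In the Control libraries Kmt5b was at 130, 125 and 127 CPM, in BSA at 108, 109 and 111, and in Taxinine at 115, 115 and 113. Kmt5b and Kmt5c were also lower in Taxinine against Control, at -0.16 and -0.23 (edgeR adjusted p 0.00828 and 0.00787), and the second call was lost without Control replicate 2 (log2 -0.17, adjusted p 0.0863) or Taxinine replicate 1 (0.0577).

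Taxinine against BSA gave no call among the 8 Kmt genes in edgeR, where 0 had an unadjusted p under 0.05, in DESeq2 or in limma. In edgeR 6.98% of all genes were called in this comparison. Their log2 differences ran from -0.11 for Kmt2e to 0.11 for Kmt2a. A log2 change of 0.4 was recovered for 70% of genes simulated in BSA against Control, where genes with low counts were left unchanged. Neither Taxinine against BSA nor a change as small as these was simulated.

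Among the 11 zinc deacetylases there was 1 rise and 1 fall in BSA against Control, beside 16.2% and 17.8% of all genes. On total counts Hdac1 still rose and 5 fell (Hdac2, Hdac3, Hdac5, Hdac7 and Hdac10), beside 7.15% and 45.6% of all genes. Hdac1, a core enzyme of the NuRD, Sin3 and CoREST complexes, rose. It was at 77.3, 76.0 and 76.5 CPM in Control, at 100, 99.1 and 96.1 in BSA, and at 99.6, 108 and 109 in Taxinine. All stimulated libraries were above all Control libraries. The change was 0.36 ± 0.05 on the log2 scale in BSA (edgeR adjusted p 1.4e-07) and 0.46 ± 0.05 in Taxinine (5.81e-10), both against Control, and 0.10 between them (95% interval 0.00 to 0.20, not called).

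Hdac2, the close relative of Hdac1, was at -0.07, and the remaining class I members Hdac3 and Hdac8 at -0.12 and 0.18, none called. Among class IIa enzymes, whose place in or out of the nucleus is under kinase control, Hdac5 fell by 0.18 ± 0.05 (edgeR adjusted p 0.0065). That call was lost without Control replicate 2 (0.0633). Hdac4, Hdac7 and Hdac9 had log2 values of 0.04, -0.05 and -0.03. The class IIb enzymes Hdac6, a cytoplasmic tubulin deacetylase, and Hdac10, a polyamine deacetylase, were at 0.01 and -0.19 and did not pass. In Taxinine against Control, Hdac10 fell by 0.35 ± 0.09 (edgeR adjusted p 0.00123), from 24.0 to 18.7 CPM.

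Hdac11, the only class IV enzyme, was near the floor, with 16, 9 and 10 counts in the Control libraries, 14, 18 and 6 in those of BSA, and 4, 4 and 10 in those of Taxinine. Its differences could not be resolved at this depth. In Taxinine against BSA 0 of the 11 deacetylases passed in edgeR, DESeq2 or limma, and Hdac3 had an unadjusted p of 0.0229 (log2 0.15). Among all genes edgeR called 6.98% there.

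Sirtuins changed in both directions. With antigen, Sirt1 and Sirt2 rose and Sirt4, Sirt6 and Sirt7 fell, while Sirt3 and Sirt5 did not pass. With taxinine, Sirt1 and Sirt7 rose and Sirt3 fell relative to antigen alone. Sirtuins thus held 3 of the 4 calls in that comparison, and those of Sirt3 and Sirt7 were lost without certain libraries, as given above. Among all genes, 34% were called in BSA against Control and 6.98% in Taxinine against BSA. Whether sirtuins were called more often than other genes was not tested.

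Sirt1, a nuclear deacetylase of histones and transcription factors, lies on chromosome 10 from 63319005 to 63381704. Its Control levels were 61.7, 53.3 and 62.8 CPM, its BSA levels 79.6, 80.9 and 67.6, and its Taxinine levels 101, 106 and 107. The groups did not overlap and rose in that order. The log2 fold change was 0.36 ± 0.06 in BSA against Control (edgeR adjusted p 8.28e-06), 0.46 ± 0.06 in Taxinine against BSA (8.39e-07) and 0.82 ± 0.06 in Taxinine against Control (7.48e-15). On total counts the first of these was 0.14 and not called, whereas the second was called under each alternative, at 0.39 to 0.50.

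Sirt6, a chromatin-bound sirtuin, moved the other way. It was at 14.5, 12.9 and 13.4 CPM in Control, at 9.41, 9.54 and 10.3 in BSA, and at 9.60, 8.37 and 7.33 in Taxinine. Both stimulated groups lay below Control and overlapped each other. The fall was -0.48 ± 0.11 on the log2 scale with antigen (edgeR adjusted p 0.00038) and -0.71 ± 0.12 in Taxinine against Control (2.96e-06), and -0.23 ± 0.13 between Taxinine and BSA was not called (0.324). Within each library, which no scaling affects, there were 414 to 468 Sirt1 counts for every 100 Sirt6 counts in Control, 658 to 848 in BSA and 1051 to 1459 in Taxinine.

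Sirt7, the nucleolar sirtuin, was at 58.4, 67.1 and 63.7 CPM in Control, at 44.8, 46.2 and 51.9 in BSA, and at 56.7, 54.3 and 59.1 in Taxinine. BSA was lowest and overlapped neither group, and Taxinine overlapped Control. The log2 change was -0.41 ± 0.06 in BSA against Control (edgeR adjusted p 9.25e-07) and 0.26 ± 0.07 in Taxinine against BSA (0.0101), and the value of -0.15 in Taxinine against Control did not pass (0.0569). On total counts that last value was also called (log2 -0.35, edgeR adjusted p 9.11e-06). Some 124 of its exon bases, 2.41%, are shared with Mafg on the same strand.

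Of the mitochondrial sirtuins, Sirt3 was at 38.5, 43.6 and 38.9 CPM in Control, at 40.8, 39.8 and 41.8 in BSA, and at 30.9, 34.8 and 33.8 in Taxinine. All Taxinine libraries were below all others. The log2 change of -0.29 ± 0.07 in Taxinine against BSA passed the test (edgeR adjusted p 0.00621), and with antigen alone it was 0.02 and not called, though on total counts it was -0.21 (edgeR adjusted p 0.00652). Sirt3 shares 418 exon bases with Ric8a and 342 with Psmd13, both on the opposite strand. Sirt4 was low, at 3.90, 6.85 and 4.97 CPM in Control, at 2.73, 3.39 and 2.55 in BSA, and at 3.01, 2.38 and 2.95 in Taxinine. Control lay above both other groups, which overlapped each other, and the fall with antigen was -0.85 ± 0.20 on the log2 scale (edgeR adjusted p 0.000529). Sirt5, a desuccinylase, did not pass in any comparison with TMM scaling. Sirt2, the mainly cytoplasmic member, rose by 0.36 ± 0.05 with antigen (edgeR adjusted p 3.12e-07) and differed by 0.00 ± 0.05 between Taxinine and BSA.

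Levels per kilobase of exon spanned a wide range. In Control, Kdm3a led at 32.5 ± 0.506 CPM per kb (SD, n = 3), followed by Kdm4b at 26.3 ± 0.936, Kdm4a at 24.0 ± 0.608, Kdm6a at 23.9 ± 1.48, Kmt2e at 23.5 ± 3.25 and Hdac1 at 22.2 ± 0.195. From Kdm4a to Hdac1 neighbours in this order differed by no more than their spread. The lowest protein-coding members were Hdac9 at 0.340 ± 0.0767 and Hdac11 at 0.198 ± 0.0672. Exon length was the union of annotated exons, which need not be the transcripts these cells make.

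**Figure D4:**
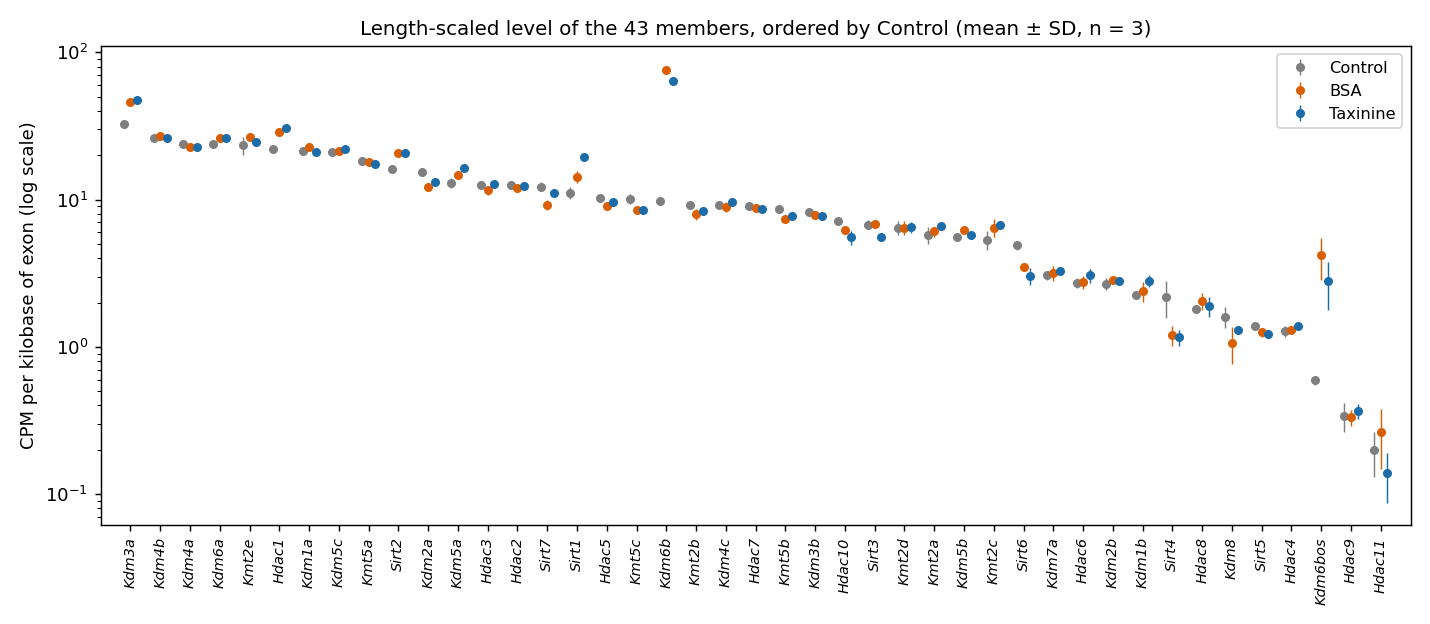
Length-scaled level (CPM per kilobase of exon, log axis) of the 43 genes, ordered from left to right by their Control mean; points are group means and bars the SD (n = 3). Kdm6b leaves the order, going from 9.80 in Control to 75.6 in BSA and 63.4 in Taxinine, while Hdac9 and Hdac11 lie at the right end in all 3 groups.

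Related enzymes and cofactors were read from 7 lists. Beside their counts with antigen stand the shares of all genes, of which 16.2% rose and 17.8% fell in BSA against Control. On total counts these shares were 7.15% and 45.6%. Of the 10 other histone demethylases in the table, 5 rose and 1 fell with antigen, and on total counts 2 rose and 2 fell. Jmjd1c, a relative of Kdm3a, rose by 0.63 ± 0.05 on the log2 scale (edgeR adjusted p 1.05e-13) and Jmjd6 by 0.43 ± 0.06 (3.35e-07). Rsbn1l and Phf8 rose by 0.26 and 0.22 with TMM, and on total counts they were at 0.035 and -0.0093, not called. None of the 10 changed in Taxinine against BSA in edgeR, DESeq2 or limma, where 1 was higher and 1 lower at an unadjusted p under 0.05. Of all genes, edgeR called 6.98% in that comparison.

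Of 34 other histone methyltransferases, 6 rose and 9 fell with antigen (on total counts 2 and 23). Dot1l, which methylates the globular part of the nucleosome, rose by 0.76 ± 0.05 (edgeR adjusted p 2.03e-17). Setmar fell by 1.04 ± 0.21 and Prmt6 by 0.66 ± 0.15. Setd1b, a further promoter methyltransferase, rose by 0.22 ± 0.05 with antigen (edgeR adjusted p 0.000662) (on total counts -0.0058, not called) and was lower with taxinine than with antigen alone, at -0.34 ± 0.05 (1.96e-05). Prdm2 was the 1 gene of this list that rose in Taxinine against BSA, by 0.32 ± 0.06 (edgeR adjusted p 0.000452).

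Of 19 subunits of the COMPASS complexes, in which Kmt2 enzymes work, and of Polycomb, 0 were called upward with antigen by edgeR, DESeq2 or limma. In edgeR 1 was upward at an unadjusted p under 0.05, and 16.2% of all genes were called upward. A fall was called for 6 (on total counts 17), beside 17.8% of all genes (on total counts 45.6%). Rbbp5, a core COMPASS subunit, fell by 0.40 ± 0.06 (edgeR adjusted p 3.9e-07). Mtf2, Men1 and Wdr82 fell by 0.23, 0.29 and 0.17. None of the 19 changed with taxinine in edgeR, DESeq2 or limma, and 1 was higher and 1 lower at an unadjusted p under 0.05. The share of all genes that edgeR called was 6.98%.

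Among 40 subunits of the corepressor complexes that hold deacetylases, 8 rose and 4 fell with antigen (on total counts 1 and 28). Chd4, the remodeller of NuRD, rose by 0.34 ± 0.04 (edgeR adjusted p 2.06e-08), and Rbbp7 was at 0.23 with TMM (on total counts -0.0014, not called). Brms1l, a Sin3 subunit, fell by 0.60 ± 0.10. With taxinine 1 fell relative to antigen alone, Gse1 at -0.25 ± 0.05 (edgeR adjusted p 0.00105), and Dnttip1 at -0.36 just missed (0.0504). Of 15 acetyltransferases, the opposing enzymes, 4 rose and 1 fell with antigen (on total counts 1 and 9). Ncoa2, a steroid receptor coactivator, rose by 0.54 ± 0.04 (edgeR adjusted p 8.79e-14) and Kat8 fell by 0.43 ± 0.10. Ncoa3 and Hat1, at 0.16 and 0.15, were called with TMM and not on total counts, where both lay below 0 (-0.064 and -0.076), and Hat1 was not called in DESeq2 (adjusted p 0.053). In Taxinine against BSA, Ncoa2 was at -0.14 ± 0.04 (edgeR adjusted p 0.0489). Neither total counts (0.124) nor limma (0.106 and 0.114) called it, nor did the fits that left out 1 Taxinine library (0.126 to 0.168).

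Partners of class IIa deacetylases, the kinases and 14-3-3 proteins that keep them out of the nucleus and the MEF2 factors they bind, counted 6 rises and 2 falls of 20 with antigen (on total counts 3 and 7). Prkd2, a protein kinase D, rose by 0.99 ± 0.06 (edgeR adjusted p 2e-17) from 37.3 to 74.3 CPM. Sik1, a salt-inducible kinase, rose by 1.56 ± 0.23 from a low 1.32 CPM, and the 14-3-3 genes Ywhaz and Ywhae rose by 0.47 and 0.25, the second not on total counts (0.020). Camk1 was the 1 partner called in Taxinine against BSA, at -0.25 ± 0.05 (edgeR adjusted p 0.00118).

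For NAD supply and use, 3 of 15 genes rose and 2 fell with antigen (on total counts 1 and 8). Nampt, the rate-limiting enzyme of NAD salvage, rose by 0.15 ± 0.04 (edgeR adjusted p 0.00274) from a high level, and Qprt rose by 0.30. On total counts they were at -0.079 and 0.070, not called. Nmnat1, the nuclear NAD synthase, fell by 0.56 ± 0.15 with antigen (edgeR adjusted p 0.00246) and was higher with taxinine than with antigen alone, by 0.50 ± 0.16 (0.0476). DESeq2 did not call that second difference (adjusted p 0.0966), and leaving out 1 library gave an adjusted p of up to 0.24. Parp2, an NAD consumer, fell by 0.22 with antigen, and Nadk2 was at -0.19 in Taxinine against BSA, which was not called on total counts (log2 -0.17, adjusted p 0.0726) or in limma (0.062 and 0.0626). These lists, like the 43 genes, had shares of calls of 30% to 60% with antigen, beside 34% of all genes. In Taxinine against BSA the shares of the 7 lists were 0% to 13.3%, beside 6.98% of all genes.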

How the data were processed

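Counts per gene for 9 libraries of mRNA, made with a stranded kit, were deposited together with log2 values. Per the submitters' processing notes, STAR 2.7.0f, limma 3.11 and the builds mm10 and GRCm38 were used; the counting program, strand setting and annotation: not given in the sources used here. Although the table of counts was deposited under a name that says TMM normalisation, its values are whole numbers whose library totals differ. They were used as raw counts, and what that name refers to is not known; the authors' deposited log2 values equal log2(CPM + 1) of them within 5.0e-05.

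One edgeR 4.0.16 quasi-likelihood model (R 4.3.3, TMM factors, all 9 libraries, no filter) was fitted to 15109 genes, with Benjamini-Hochberg adjustment over all of them and calls at 0.05. The SE is the log2 fold change divided by the square root of F. The biological coefficient of variation was 3.90%. Tested on simulated data for BSA against Control, changes of 0.4 on the log2 scale were recovered for 70% of 50 genes and of 0.8 for 100%. Genes with low counts were not among those changed, and all genes were drawn with 1 common dispersion. Alternatives were total count and median-of-ratios scaling, DESeq2 1.42.0, limma 3.58.1 on 2 log2 scales, a filter of at least 10 counts in 3 libraries, a fit of 2 groups, a replicate block, and leaving out each library. Exon lengths and coordinates came from GENCODE M21 and promoters from RefSeq.

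The members and lists were chosen with earlier results of these data known. Values per library were given for Kdm6b, Kdm6bos, Kdm3a, Kdm8, Hdac1, Sirt1, Sirt3, Sirt4, Sirt6 and Sirt7, and of each related list at most 4 genes by smallest p with antigen and 2 with taxinine were named; Kmt5b, Kdm5a and Kmt2c were added after their values were seen. Some genes of the lists are not reported here. Correlations of same-numbered replicates' deviations between groups were -0.19 to 0.10, so the numbers were not taken to pair the libraries.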

Additional observations from a re-analysis of the deposited data

How the results depend on the processing

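Results kept their direction and call under most alternatives; the change of scale moved most. On total counts, limma on deposited values and limma on log2(CPM + 0.1), 5, 5 and 5 members rose and 23, 23 and 23 fell in BSA against Control; in Taxinine against Control 31, 29 and 29 were called, 7, 7 and 7 upward and 24, 22 and 22 downward. Under these 3 settings, in that order, the log2 value in BSA against Control turned below 0 for Kdm1a (-0.15, -0.14, -0.15), Kdm4b (-0.19, -0.19, -0.19), Kdm5a (-0.042, -0.043, -0.044), Kdm5b (-0.057, -0.056, -0.057), Kdm5c (-0.20, -0.20, -0.20), Kdm6a (-0.10, -0.10, -0.10), Kmt2e (-0.053, -0.045, -0.045) and Sirt3 (-0.21, -0.20, -0.21). In Taxinine against Control it did so for Kdm5b (-0.14, -0.14, -0.14), Kdm5c (-0.13, -0.13, -0.13), Kdm6a (-0.067, -0.064, -0.064), Kmt2d (-0.19, -0.18, -0.18) and Hdac3 (-0.18, -0.17, -0.17), and on total counts for Kmt2a (-0.0065) and Kmt2e (-0.13). These 3 settings leave out TMM factors. Changes of sign where neither value passed the test are not listed.

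Leaving out 1 library in turn, the calls ranged from 16 to 21 in BSA against Control (9 to 12 upward, 7 to 10 downward), from 3 to 5 in Taxinine against BSA (1 to 3 upward, 1 to 2 downward) and from 14 to 20 in Taxinine against Control (8 to 12 upward, 6 to 9 downward). Of the 20, 4 and 19 calls, 14, 2 and 14 were made without each library in turn. With a replicate block the counts were 20, 5 and 20: Kdm5a in Taxinine against BSA (log2 0.16, adjusted p 0.0451) and Sirt7 in Taxinine against Control (-0.16, adjusted p 0.0434) were added, and not every library deviated most like its own number. Genes near 1 CPM, such as Hdac11, are limited by depth.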

Other observations

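Summed over each family, the 16 demethylases came to 1808 ± 42.7 CPM in Control (SD, n = 3), 2383 ± 64.2 in BSA and 2341 ± 29.3 in Taxinine. Without Kdm6b the other 15 came to 1740 ± 41.1, 1858 ± 43.1 and 1899 ± 31.6 CPM. The 7 sirtuins summed to 272 ± 3.30, 289 ± 3.43 and 318 ± 3.20 CPM, and the 11 zinc deacetylases to 410.0 ± 8.03, 412 ± 6.47 and 430.1 ± 3.40. The 3 Kmt5 genes summed to 264 ± 1.39, 238 ± 0.772 and 241 ± 5.39 CPM. No test was made on these sums.

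The 43 genes lie on 15 chromosomes. Kdm2a and Kmt5b, both lower with antigen, are 496 kb apart on chromosome 19. Of the next pairs by distance, Hdac7 and Kmt2d (987 kb) and Kdm2b and Kmt5a (1450 kb) were not called. Kmt2e and Kmt2c (1768 kb) both rose, and Sirt2 and Kmt2b (1780 kb) moved in opposite directions. The protein-coding members that rose with antigen had a median exon length of 8304 bases (10 genes), those that fell 5148 (9 genes) and those not called 5823 (23 genes).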
